A study of Brassica rapa with 9 samples.

Results

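Kimchi cabbage seedlings carrying the G564E form of Arabidopsis thaliana phytochrome B were compared with non-transgenic seedlings (NT). The comparison rests on the 3 libraries titled G564E and the 3 titled NT, chosen by title, out of 9 libraries in the series; the other 3 carry unmodified AtPHYB and enter here only as a ranking by libraries not compared and as levels at the named IDs. All plants were Brassica rapa cultivar Chiifu, 2 weeks old, raised on MS medium containing 0.5% sucrose under conditions labelled LD, with no heat treatment, and RNA came from whole seedlings. NT is labelled wild type, and G564E is labelled as an AtPHYB mutant, in which glycine 564 of the introduced receptor is replaced by glutamate. The promoter behind the transgene, the number of transgenic lines, whether plants were pooled, and the state of the cabbage's own phytochrome B genes are not given in the labels. Nothing says that replicates were separate plants or cultures, so the p-values reflect spread among libraries that may be only technical. The plant line follows the genotype, so line and receptor cannot be told apart.

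Phytochrome B is a photoreceptor of red and far-red light. In Arabidopsis, red light converts it to its active form, which enters the nucleus and brings about the removal of PIF transcription factors, whereby genes for growth in the dark are turned down and genes for growth in the light are turned up. It also senses temperature, because its active form reverts more quickly in warmth. In seedlings it is best known for restraining stem elongation and for its part in greening and the timing of flowering.

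The files list 41020 gene IDs without names. One of them, Bra000116 (SWEET9, a member of the SWEET family of sugar transporters), matched a reference table of named genes, and its 2 reads, both in G564E replicate 2, were too few for a test. The responding genes are therefore described by abundance, size of change and behaviour across libraries, and neither the transgene nor markers of seedling tissues could be tied to an ID. In whole seedlings a smaller share of a tissue and less RNA per cell cannot be told apart. Libraries held 15262884 to 20998541 counts. G564E replicate 1 and NT replicate 3 stood apart within their groups. G564E replicate 1 differed at least 4-fold from replicate 2 at 723 tested genes and from replicate 3 at 822, against 41 between replicates 2 and 3 (on log2(CPM + 1)). NT replicate 3 differed at least 4-fold from NT replicates 1 and 2 at 199 and 251 genes, against 150 between those. Counts that turn or move by more than 1.5 times without a library are given with that value beside them.

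Seedlings with the G564E form had 2329 genes higher and 2867 lower than NT among 27460 tested (edgeR quasi-likelihood test on these 6 libraries, Benjamini-Hochberg adjusted p under 0.05). This was 18.9% of the tested genes, 8.48% higher and 10.4% lower. The genes that rose were mostly weakly expressed in NT, with a median level of 4.39 CPM (counts scaled to TMM-adjusted library totals) there and 14.8 CPM in G564E. The genes that fell were mostly well expressed, with a median of 44.3 CPM in NT and 20.5 CPM in G564E, while the median over all tested genes was 13.2 CPM in NT and 13.3 CPM in G564E. These levels count reads per gene, not per length, because no gene lengths of this annotation were used. Choosing genes by direction itself places those that rose lower in NT and those that fell higher in NT. In G564E both medians lay nearer to that of all tested genes.

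With all 6 libraries, at least 2-fold changes were called at 1831 higher and 1730 lower genes (6.67% and 6.30% of those tested), at least 4-fold changes at 874 and 616, and at least 16-fold changes at 238 and 105. Without G564E replicate 1 these counts were 2799 and 2930, 1272 and 1297, and 352 and 344. With any other single library left out, 666 to 960 genes rose and 916 to 1234 fell by at least 2-fold. At least 4-fold, 448 to 558 rose and 433 to 547 fell, and at least 16-fold, 162 to 208 rose and 86 to 112 fell. Falls thus outnumbered rises at 2-fold whichever library was left out. At 4-fold they did so without G564E replicate 1 and without NT replicate 2 (507 rises and 547 falls). At 16-fold rises outnumbered falls in every fit. The median log2 fold change was 1.59 among the genes called higher and -1.18 among those called lower, against -0.02 over all tested genes. A total of 102 genes were called higher from a mean under 0.1 CPM in NT to a mean of at least 1 CPM in G564E, and 55 of these reached 1 CPM in every G564E library. The opposite change, from at least 1 CPM in NT to under 0.1 CPM in G564E, was called at 27 genes, 16 of which had at least 1 CPM in every NT library. Without G564E replicate 1 the counts were 141 and 162, and without NT replicate 3 they were 86 and 25. At 44.4% of the tested genes, 20.4% above and 24.0% below, all 3 G564E libraries lay beyond all 3 NT libraries, more genes than were called.

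**Figure D1:**
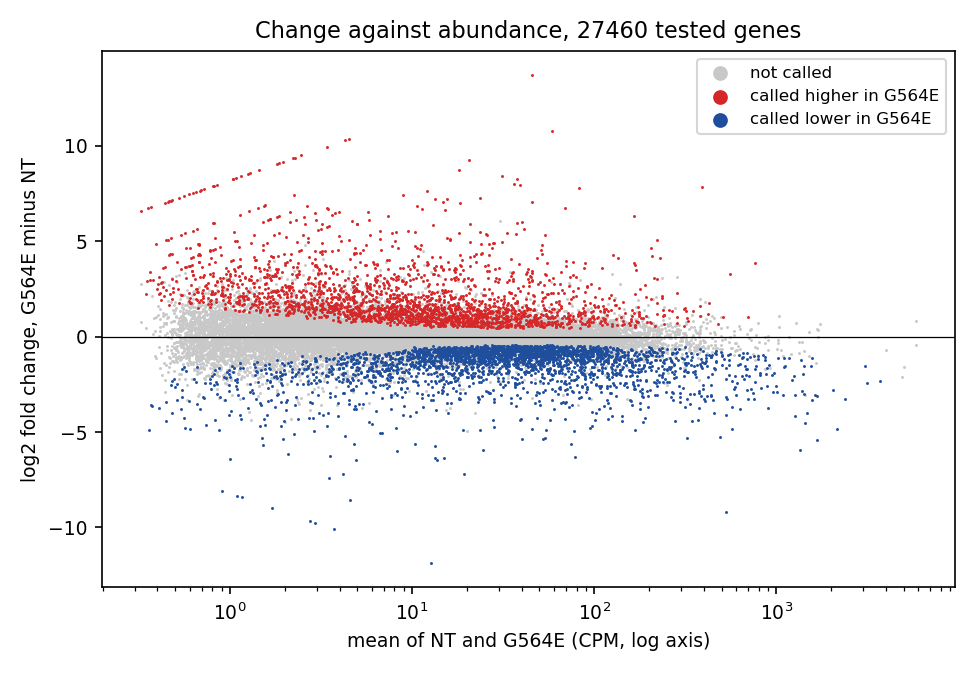
Log2 fold change of G564E minus NT (vertical axis) against the mean of NT and G564E in CPM (horizontal log axis) for each of the 27460 tested genes, with the 2329 called higher in red, the 2867 called lower in blue and the rest in grey. Blue points reach far into the most abundant genes on the right, where red points are few, and the largest rises lie at low and middle abundance; the straight line of red points at the upper left is formed by genes with next to no reads in NT.

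The count of called genes depended on single libraries. It was 9551 without G564E replicate 1 (34.3% of the genes tested in that fit), 2104 without replicate 2 (7.51%) and 1840 without replicate 3 (6.58%). It was 1764, 2213 and 2421 without NT replicates 1, 2 and 3 (6.26%, 7.88% and 8.61%). Of the 5196 genes, 5066 were called again without G564E replicate 1, all in the same direction, and they made up 53.0% of the genes called there. With any other single library left out, 1718 to 2278 of them (33.1% to 43.8%) were called again, also all in the same direction. These fits share most of their libraries with the main fit, so the shared direction is not a separate test. With NT replicate 3 and G564E replicate 1 both left out, the count was 9773, of which 4540 were higher and 5233 lower. Scaling by library size alone, which does not allow for the change in composition described below, called 5832 genes higher and 1524 lower. The higher share was then 79.3%, compared with 44.8% under TMM scaling of the 6 libraries, and the all-gene median of the log2 fold change shifted to 0.34. The higher share was 50.6% with median-of-ratios scaling, 52.1% with DESeq2, 51.0% with all 9 libraries and 41.3% with limma-voom.

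The following 4 IDs had the largest rises and falls in mean CPM among those that were called, did not overlap between groups and were called again without G564E replicate 1. Bra025728 was measured at 98.3, 62.0 and 131 CPM in the NT libraries and at 417, 1702 and 2194 CPM in G564E replicates 1, 2 and 3. The groups did not overlap, and replicate 1 was the lowest of the G564E libraries. Bra025728 rose by 3.89 ± 0.68 on the log2 scale (SE; edgeR adjusted p = 0.0139), from 97.2 ± 34.7 to 1438 ± 918 CPM (SD, n = 3 each). Its adjusted p was 0.0634 without NT replicate 1 and 0.0565 without NT replicate 2, in a range of 5.44e-10 to 0.0634 over 17 alternatives.

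Bra013123 was at 145, 54.1 and 111 CPM in the NT libraries and at 215, 1669 and 1159 CPM in the G564E libraries. The rise was carried by G564E replicates 2 and 3, while replicate 1 lay just above the highest NT library. On the log2 scale it rose by 3.29 ± 0.79 (SE; edgeR adjusted p = 0.0334). The call was lost in 7 of 17 alternatives, including each fit that left out 1 library other than G564E replicate 1, with adjusted p from 1.2e-05 to 0.137 over the alternatives.

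The IDs with the largest falls were among the most abundant genes, ranking 6 and 7 by the mean of NT and G564E. Bra027243 was at 6003, 6462 and 5948 CPM in NT and at 1209.5, 1171 and 1342 CPM in G564E. All 3 G564E libraries, replicate 1 included, were close together and far below NT. Bra027243 fell by 2.31 ± 0.25 on the log2 scale (SE; edgeR adjusted p = 0.00407), and its call held in all 17 alternatives, with adjusted p from 2.51e-65 to 0.0383. Bra005522 was at 5817, 4922 and 5159 CPM in NT and at 364, 1327 and 1303 CPM in G564E. Here replicate 1 was lower than replicates 2 and 3, so it went further from NT than they did. Bra005522 fell by 2.41 ± 0.53 on the log2 scale (SE; edgeR adjusted p = 0.0263). Its call was lost in the same 7 of 17 alternatives as that of Bra013123, with adjusted p from 1.39e-05 to 0.083. The AtPHYB libraries, on a scaling of all 9 libraries, had 49.2 ± 24.8 CPM of Bra025728, 65.2 ± 55.5 of Bra013123, 6918 ± 1536 of Bra027243 and 5248 ± 1011 of Bra005522 (SD, n = 3).

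**Figure D2:**
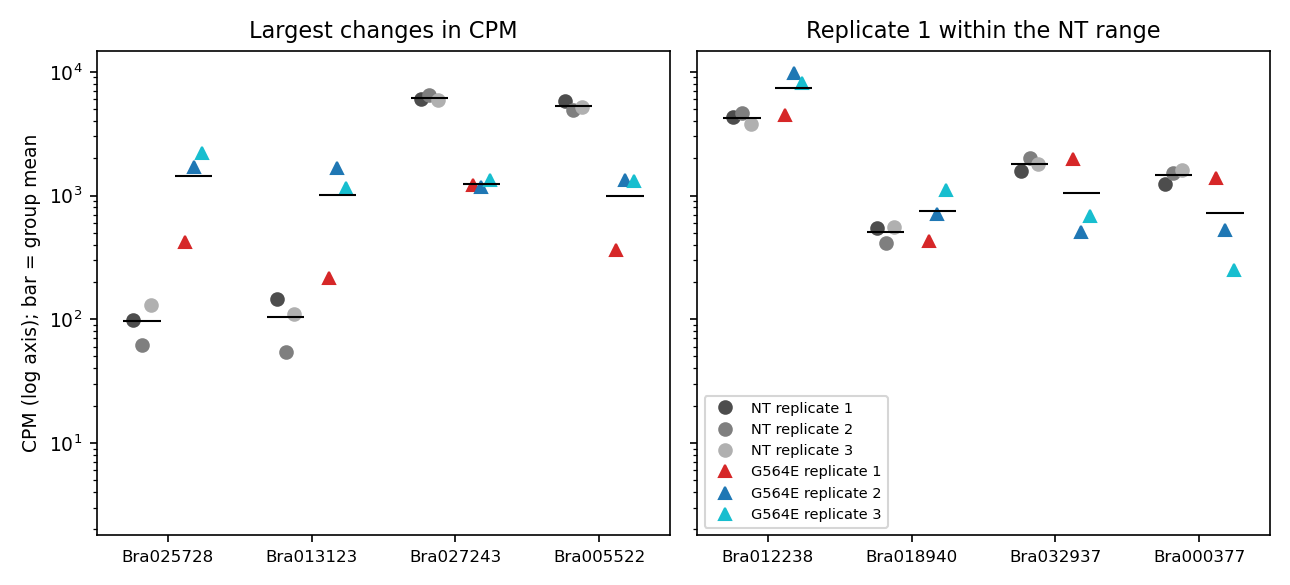
CPM in each library (log axis) of 8 gene IDs, with NT as circles, G564E as triangles and group means as bars. On the left are the 2 largest rises and the 2 largest falls in mean CPM among IDs called with and without G564E replicate 1 whose groups did not overlap; on the right are IDs at which G564E replicate 1 (red triangle) lies among the NT circles while replicates 2 and 3 lie apart.

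With TMM scaling, falls outnumbered rises among the most abundant genes, while the balance among the least abundant genes depended on the ranking and on G564E replicate 1. Tested genes were ordered by their mean level in NT and G564E and cut into 10 equally large classes. In the least abundant class 285 genes were called higher and 91 lower, and the median log2 fold change was 0.23. In the most abundant class, which began at 76.1 CPM, 167 were called higher and 715 lower, with a median of -0.28. The share called lower was larger in each class than in the one below it, from 3.31% to 26.0%, while the share called higher was 10.4% in the least and 6.08% in the most abundant class. A ranking by the AtPHYB libraries, which take no part in the comparison, gave the same slope, with 583 higher and 42 lower in the least abundant class and 64 higher and 919 lower in the most abundant. The 100 most abundant genes of AtPHYB shared 84 IDs with those of NT and 43 with those of G564E, so this ranking may favour genes lower in G564E as one by NT does. Ranked by G564E alone, which favours genes high in G564E, the least abundant class had 131 higher and 250 lower and the most abundant 297 and 401, so falls then outnumbered rises in both. With library size alone the most abundant class had 486 higher and 456 lower, so the excess of falls in it depends on the scaling, whereas the least abundant class had 425 higher and 83 lower. Without G564E replicate 1 the least abundant class had 406 higher and 460 lower and the most abundant 418 and 936. With any other single library left out the least abundant class had 43 to 78 higher and 11 to 29 lower, and the most abundant 45 to 85 higher and 338 to 450 lower.

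**Figure D3:**
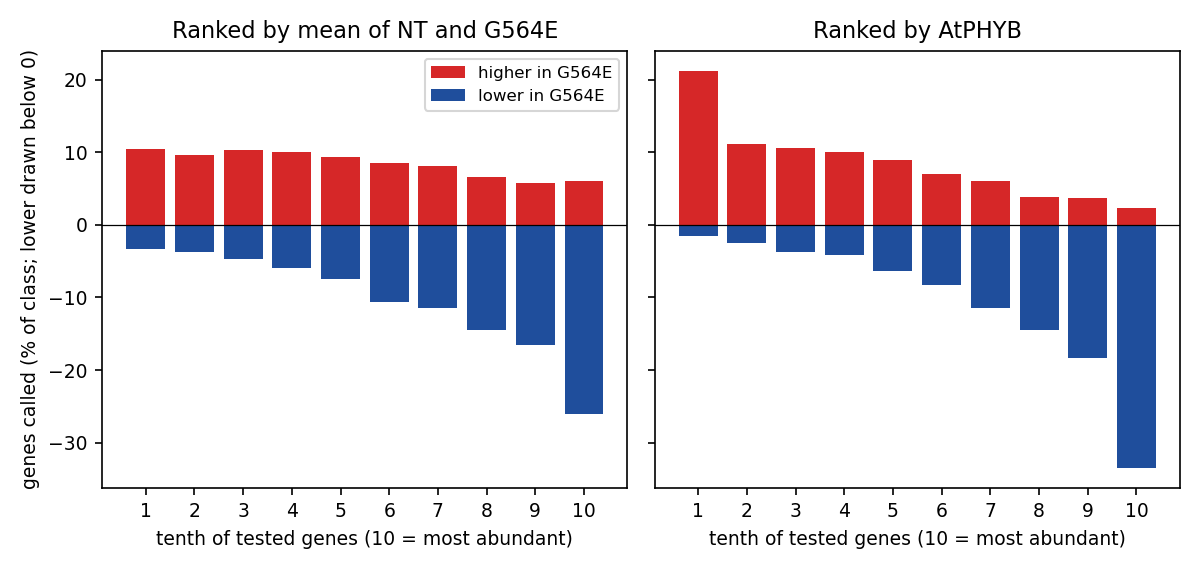
Share of genes called higher (red, above 0) and lower (blue, drawn below 0) in G564E, in percent of each of 10 abundance classes, with class 10 the most abundant. Classes follow the mean level in NT and G564E on the left and by AtPHYB on the right; in both, blue bars lengthen toward class 10, to 26.0% and 33.5%.

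Among the 100 most abundant genes, 55 were called lower and 1 higher, against 10.4% and 8.48% of all tested genes, and 44 passed no threshold. Their median log2 fold change was -1.29, with quartiles of -2.45 and -0.52. Ranked by AtPHYB, 72 of 100 were lower and 0 higher, close to the 71 and 0 of a ranking by NT, and G564E was above NT in every library at 3 and below it at 82, against 20.4% and 24.0% of all tested genes. Ranked by G564E alone, 21 were lower and 11 higher, and the median was -0.15. The lists of the 100 most abundant genes of NT and of G564E shared 46 IDs. Library size alone left 40 of the 100 lower and 5 higher. Without G564E replicate 1, 66 were lower and 6 higher, in a fit that called 34.3% of all genes. Without G564E replicates 2 and 3, 36 and 30 were lower, and without NT replicates 1, 2 and 3, 33, 37 and 38.

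Reads were spread over more genes in G564E than in NT. The 100 most abundant genes of each library held 17.5%, 17.8% and 18.3% of the counts in NT replicates 1, 2 and 3 and 11.1%, 11.8% and 11.5% in G564E replicates 1, 2 and 3. The groups did not overlap, and G564E replicate 1 was lowest (difference of means -6.39 percentage points, exact permutation test, 2-sided p = 0.1, the smallest that 3 against 3 libraries allow). It took 1502, 1498 and 1355 genes to reach 50% of the counts in the NT libraries and 2327, 2300 and 2365 in the G564E libraries (exact permutation p = 0.1). The single most abundant gene of each library held 0.748 ± 0.0443% of the counts in NT and 0.916 ± 0.190% in G564E (SD, n = 3 each), and the groups overlapped (exact permutation p = 0.3).

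**Figure D4:**
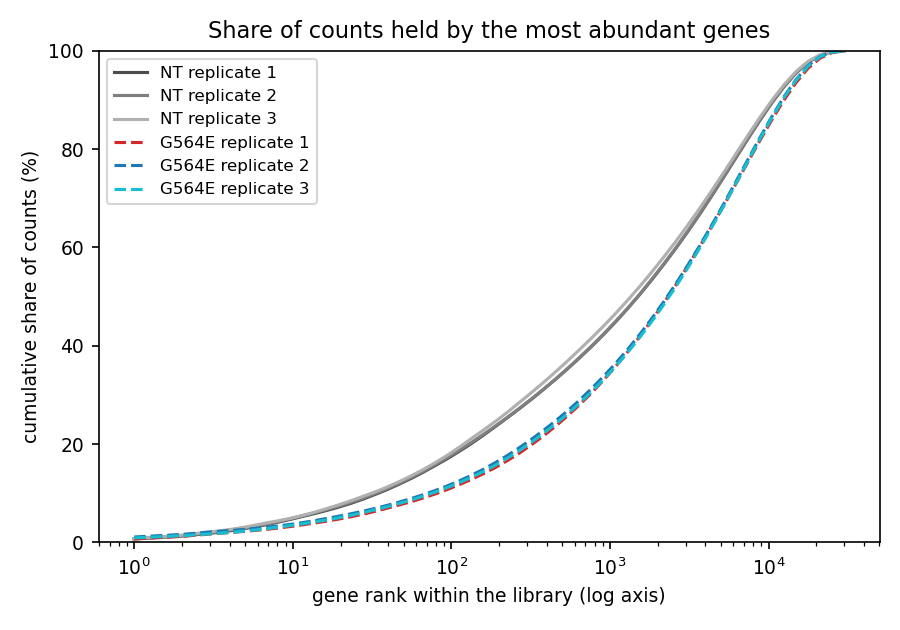
Cumulative share of each library's counts (percent) held by its most abundant genes, against gene rank on a log axis, with NT as solid grey and G564E as dashed coloured lines. The 3 G564E lines, replicate 1 included, run together below the NT lines from rank 5 on, at 11.1% to 11.8% against 17.5% to 18.3% at rank 100; at the first few ranks, on the far left, lines of the groups cross.

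The genes called lower held 34.7%, 33.0% and 35.5% of all counts in the NT libraries and 12.9%, 14.8% and 14.8% in G564E replicates 1, 2 and 3. The genes called higher held 2.81%, 2.87% and 2.69% in NT and 8.71%, 10.02% and 10.97% in G564E. These genes were chosen by this comparison, so the shares describe how many reads were involved and test nothing. Genes not called went from 62.7 ± 1.20% to 75.8 ± 2.14% of the counts (SD, n = 3 each), and the TMM scaling factors, at 0.882 ± 0.025 in NT and 1.13 ± 0.009 in G564E, allow for that. Thinned to 15262884 counts each, 31460, 31465 and 31368 IDs were detected in NT and 32614, 31758 and 31867 in G564E. The groups did not overlap, with replicate 1 highest (exact permutation test, 2-sided p = 0.1), but as deposited, at unequal depths, they did (p = 0.3).

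How far G564E replicate 1 followed replicates 2 and 3 was read at genes chosen without it. A fit of NT against replicates 2 and 3 alone called the 9551 genes given above (34.3%), and 9379 of them were also tested with all 6 libraries. Replicate 1 lay beyond all NT libraries in the same direction at 7154 of the 9379, or 76.3%. It lay within the NT range at 1096, or 11.69% of the 9379, and beyond NT in the opposite direction at 1129, or 12.04%. Those 1096 made up 3.99% of all tested genes. Over all tested genes replicate 1 lay beyond NT in the same direction at 59.0%, within the NT range at 21.77% and opposite at 19.27%. The NT libraries are common to both readings, and this favours the same direction. At the median called gene the shift of replicate 1 from NT was 0.72 of that of replicates 2 and 3 (quartiles 0.23 and 1.21, on log2(CPM + 1)). One library allows no test of this.

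The other replicates were read by the same rule at genes where 2 G564E libraries lay beyond all NT libraries, whether called or not. The mean of these 2 also had to differ from the NT mean by at least 2-fold (on log2(CPM + 1)). Replicate 1 was beyond NT with the other pair at 3672 of 4861 such genes, or 75.5%. Replicate 2 was so at 96.9% of 4118 and replicate 3 at 96.9% of 3981. For replicates 2 and 3 the pair included replicate 1, which makes the genes fewer and is not quite a like comparison. At 518 genes replicate 1 was at least 4-fold away from both others of its group, against 10 for replicate 2 and 20 for replicate 3. At 389 of the 518 it was above them, and at 313 of these it was also above every NT library. At 49 of the 389, and at 27 of the 129 where it was below, did it lie within the NT range.

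The following differed with direction and abundance. Among the 4448 genes called higher by replicates 2 and 3, replicate 1 was above all NT libraries at 80.4%, and among the 4931 called lower it was below them at 72.5%. For rises the share grew with size, from 73.5% of genes with under 2-fold change to 98.0% of the 295 with at least 16-fold change, although at the latter its median shift was 0.67 of the others'. For falls it went down with size, from 81.9% under 2-fold to 49.2% of the 321 at 16-fold or more, where replicate 1 was above every NT library at 103 genes. In the 3 least abundant classes replicate 1 followed 87.4% of the 1381 rises but 46.5% of the 1146 falls. At these falls its median shift was 0.17 of the others' shift. It lay above every NT library at 356 of these falls (31.1%) and within the NT range at 257 (22.4%). In the 3 most abundant classes it followed 74.9% of the 1187 rises and 87.5% of the 2152 falls, at a median of 1.06. The genes were called without replicate 1, but these classes rank by the mean of NT and G564E, which includes its level. With classes ranked by AtPHYB, replicate 1 followed 30.4% of 270 falls in the least and 91.5% of 1181 in the most abundant class. In the least abundant class it lay above every NT library at 48.5% of the falls. Of the rises it followed 91.2% of 804 in the least and 68.8% of 192 in the most abundant class. More IDs were detected in replicate 1 than in any other library at equal depth (32614); the part of this in the falls it did not follow was not tested.

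**Figure D5:**
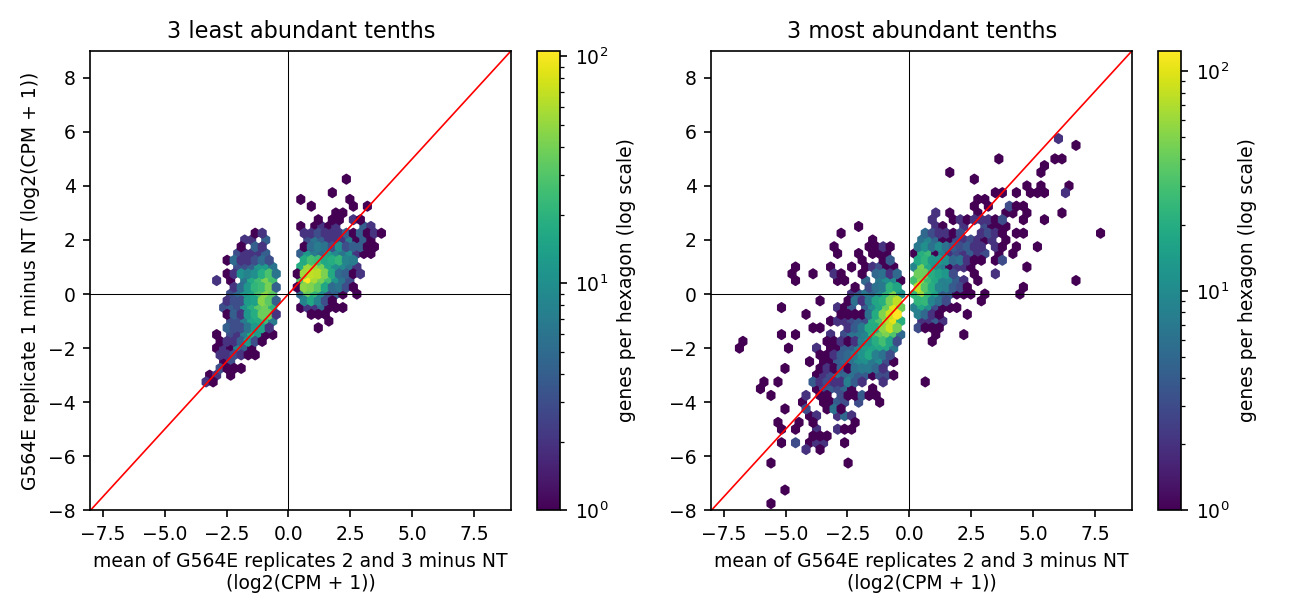
Shift from the NT mean in G564E replicate 1 (vertical) against that in the mean of replicates 2 and 3 (horizontal), both in log2(CPM + 1), at genes called without replicate 1, in the 3 least abundant classes (left) and the 3 most abundant (right); colour gives genes per hexagon on a log scale and the red line marks equal shifts. On the left the falls of replicates 2 and 3 are spread around 0 in replicate 1. It followed 46.5% of them and lay above every NT library at 31.1%. On the right most falls lie along the line, with 87.5% followed.

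Some of the most abundant genes were among those that replicate 1 did not follow. Bra012238, first in rank by the mean of NT and G564E, was at 4315, 4647 and 3777 CPM in NT and at 4437, 9823 and 8059 CPM in G564E replicates 1, 2 and 3. Replicates 2 and 3 were above every NT library and replicate 1 was among them. Its log2 fold change was 0.81 with all 6 libraries (edgeR adjusted p = 0.177) and 1.14 without replicate 1 (edgeR adjusted p = 0.0157). Bra018940 was at 549, 410 and 559 CPM in NT and at 426, 704 and 1105 CPM in G564E, with an adjusted p of 0.317 with replicate 1 and 0.0424 without it (edgeR).

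Bra032937 and Bra000377 showed the same among falls. Bra032937 was at 1587, 1995 and 1805 CPM in NT and at 1977, 503 and 689 CPM in G564E, so that replicate 1 was close to the highest NT library. Its log2 fold change was -0.77 with replicate 1 (edgeR adjusted p = 0.339) and -1.52 without it (0.00656). Bra000377 was at 1239, 1524 and 1594 CPM in NT and at 1384, 524 and 249.7 CPM in G564E, and its log2 fold change went from -1.01 (edgeR adjusted p = 0.268) to -1.84 without replicate 1 (0.0135). Over 17 alternatives the adjusted p ranged from 0.0157 to 0.38 for Bra012238, 0.0424 to 0.731 for Bra018940, 0.00656 to 0.606 for Bra032937 and 0.0135 to 0.468 for Bra000377. These 4 IDs were picked for a replicate 1 within the NT range, so their gain in its absence is a description. The AtPHYB libraries, on a scaling of all 9 libraries, had 2028 ± 100 CPM of Bra032937 and 1388 ± 113 of Bra000377 (SD, n = 3). They had 806, 810 and 774 CPM of Bra018940, above every NT value given here. Of Bra012238 they had 2163, 2958 and 2858 CPM, below every NT value given here.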

How the data were processed

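The deposited files hold raw counts of reads per gene ID, 1 library per file. Total RNA was treated with DNase and made into libraries with a stranded mRNA kit, per the labels' protocols. FastQC 0.11.8, Trimmomatic 0.39, TopHat2, HTSeq and edgeR are named in the submitters' processing notes. Their settings, build, annotation and strand option were not given in the sources read here. Reads shared between duplicated Brassica gene copies or antisense partners may therefore have been left out or counted at the wrong gene. Of 41020 IDs, 1 matched a table of 51589 genes (CAAS_Brap_v3.01 assembly), so gene lists fixed by symbol, among them tissue markers, could not be filled.

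The 6 libraries were fitted in edgeR 4.0.16 under R 4.3.3 (filterByExpr defaults, 27460 genes; TMM; glmQLFit and glmQLFTest, 2-sided, Benjamini-Hochberg). CPM used TMM-scaled totals of tested genes. Standard errors are the log2 fold change over the square root of its F statistic. Comparisons of log2(CPM + 1) used a pseudocount of 1 CPM. DESeq2 1.42.0, limma-voom (limma 3.58.1) and other settings were alternatives. On simulated data with 100 genes changed at each size among 27010, the G564E minus NT fit recovered 1% of 2-fold and 31% of 4-fold changes with 3 false calls; far more genes change in the real data, which makes the adjustment less strict.

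Members, gene lists, tests and the rule for named IDs were chosen with earlier results of these data known. The rule took the 2 largest rises and 2 largest falls in mean CPM among the 5065 IDs that were called, did not overlap between groups and were called again without G564E replicate 1, and, for replicate 1, the 2 rises and 2 falls called without it with the largest CPM gap among the 1096 IDs at which it lay within the NT range. The libraries held 15262884 to 20998541 counts; exact permutation tests used SciPy 1.17.1.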

Additional observations from a re-analysis of the deposited data

How the results depend on the processing

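The 5196 genes called became 1215 at an adjusted p under 0.01 (459 higher, 756 lower) and 3561 at 2-fold or more (1730 lower). They were 1764 to 9551 with single libraries left out (higher 681 to 4579, lower 982 to 4972). Library size alone gave 5832 higher and 1524 lower, DESeq2 4016 and 3699, and a fit of all 9 libraries 3847 and 3698. NT replicate 3 and G564E replicate 1 left out together (chosen after seeing the data) gave 9773 (4540 higher, 5233 lower). Median-of-ratios scaling (2597 higher, 2533 lower), limma-voom and other filters left each total within 1.5 times. Rises thus outnumbered falls with library size alone, DESeq2, all 9 libraries and median-of-ratios scaling, but not in the main fit. Falls outnumbered rises with limma-voom, the other filters and each single library left out. With the replicate number as a block 1726 genes were called (685 higher, 1041 lower), and 31 of the 100 most abundant were lower. Deviations of same-numbered NT and G564E libraries correlated at -0.17, -0.19 and 0.04, and none of the 6 libraries correlated best with its own number. With NT replicates 1, 2 and 3, G564E replicate 2 correlated at 0.13, -0.19 and 0.057 and replicate 3 at 0.15, -0.19 and 0.04. These are nearly alike, so they cannot decide whether same-numbered libraries belong together, which the labels do not say. Bra013123 and Bra005522 lost their call under the block (edgeR adjusted p = 0.137 and 0.075). Of the 100 most abundant genes, 30 were lower and 0 higher at an adjusted p under 0.01, and 30 to 66 were lower and 0 to 6 higher with single libraries left out. The 1 higher gene became 2 with median-of-ratios scaling and limma-voom, 3 with all 9 libraries, 5 with DESeq2 and library size alone, 6 with both libraries left out, and 0 when ranked by NT or AtPHYB; ranked by G564E, 21 were lower and 11 higher, and of the 500 most abundant 219 were lower and 25 higher. The least abundant class had 642 higher and 26 lower ranked by NT, 131 and 250 by G564E, and 583 and 42 by AtPHYB; the most abundant had 68, 297 and 64 higher by these rankings, 401 lower by G564E, and 486 higher and 456 lower with library size alone. With single libraries left out (chosen after seeing the data), the least abundant had 43 to 406 higher and 11 to 460 lower and the most abundant 45 to 418 higher and 338 to 936 lower. The share of genes at which replicate 1 followed was 75.1% for at least 2-fold changes, 83.6% at an adjusted p under 0.01 and 79.5% with library size alone; for rises 85.0%, 88.2% and 85.8%, and for falls 65.9%, 79.8% and 63.1%. Genes at which 1 library was at least 4-fold from each of the other 5 numbered 8, 14 and 59 in NT replicates 1, 2 and 3 and 63, 5 and 14 in G564E; with a pseudocount of 0.1 CPM they were 39, 59, 154, 136, 34 and 42, and with 5 CPM 1, 3, 15, 21, 0 and 7. No direction of a named ID was reversed in 136 recomputed values; 17 lost a call and 8 gained one. The cause of these changes was not tested, apart from thresholds and the number of libraries or genes, which set counts by construction. In the simulated data most 2-fold and many 4-fold changes were missed. Such changes may be missed in the real data too, but far more genes change there, so the share missed was not tested.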
